A study of Mus musculus with 6 samples.

Results

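The genes described here handle glyoxylate, oxalate and citrate in the mouse kidney. They are 10 genes chosen by symbol from the 17933 genes of the table: Prodh2, Hoga1, Grhpr, Hao2, Agxt and Agxt2 among the enzymes, and Slc26a1, Slc26a6, Slc13a2 and Slc13a3 among the transporters. All 10 are listed, and 9 had a mean of at least 1 FPKM (fragments per kilobase of gene, scaled to the fragments of the sample, a level per gene length) over the samples and were tested. Agxt was not.

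Whole kidneys of male wild-type C57BL/6 mice, 6 to 8 weeks old and 24 to 26 g in weight, were profiled by RNA sequencing. In the stone group (3 samples), daily intraperitoneal glyoxylic acid (120 mg/kg) was given over 12 days, which produces calcium oxalate crystals. The control group (3 samples) received saline in the same volume. The comparison asks which transcripts differ between stone and control kidneys, and the injected compound is itself the substrate of several of these enzymes.

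As background, glyoxylate stands at a branch point. Oxidation turns it into oxalate, which mammals cannot break down and which crystallises with calcium, while transamination to glycine and reduction to glycolate remove it. Liver forms glyoxylate from glycolate, and liver and kidney form it in mitochondria from the hydroxyproline of collagen. The proximal tubule moves oxalate through SLC26 anion exchangers and takes citrate back from the urine through SLC13 carriers, and citrate left in the urine binds calcium.

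Promoter sequences are shown for Prodh2 and Hao2, whose FPKM was higher in every stone sample than in any control sample. The promoter of Agxt2, the member with the largest fall, is shown too. For Agxt2, which has 2 start sites in the RefSeq table, the window of the outer one is shown. Each window is the 250 bases before the RefSeq start site (GRCm38.p6), read 5′ to 3′ on the gene's strand. Capitals mark matches on either strand to GTTAAT, a core site of the HNF1 factors, to a longer HNF1 site of 10 bases that contains it, or to CAAAGNNCA, a site of HNF4A. The HNF1 and HNF4 factors are transcription factors of proximal tubule and liver.
Prodh2 (chr7:30493408-30493657, plus strand): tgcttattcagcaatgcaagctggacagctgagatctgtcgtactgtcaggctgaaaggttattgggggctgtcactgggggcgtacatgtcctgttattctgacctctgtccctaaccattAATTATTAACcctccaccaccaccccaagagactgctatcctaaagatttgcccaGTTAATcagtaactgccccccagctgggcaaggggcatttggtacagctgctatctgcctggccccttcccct
Hao2 (chr3:98893231-98893480, minus strand): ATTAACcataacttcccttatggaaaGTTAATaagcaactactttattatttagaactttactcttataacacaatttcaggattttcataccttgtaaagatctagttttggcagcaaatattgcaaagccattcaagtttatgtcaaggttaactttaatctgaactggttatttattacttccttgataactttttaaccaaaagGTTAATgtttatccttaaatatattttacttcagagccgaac
Agxt2 (chr15:10358283-10358532, plus strand): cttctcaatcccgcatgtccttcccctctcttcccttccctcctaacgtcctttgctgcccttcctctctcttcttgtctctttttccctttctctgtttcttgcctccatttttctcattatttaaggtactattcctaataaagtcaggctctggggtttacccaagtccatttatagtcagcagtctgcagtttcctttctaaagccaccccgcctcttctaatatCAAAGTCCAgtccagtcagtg
The core site stood in the promoters of Prodh2, Hao2 and Hoga1, 3 of the 10 members, and in 6.43% of 32851 promoter windows of this length. In Hao2 it occurred 3 times, with the match nearest the start at -42 to -37. The longer site was found in Prodh2 at -128 to -119 and in 0.371% of all windows. CAAAGNNCA was present in Agxt, Agxt2 and Slc13a3, and in 5.49% of all windows. TATAAA matched in Agxt2, Slc13a2 and Slc26a1 (12.4% of windows), and CCAAT in Prodh2, Slc26a1 and Slc26a6 (33.8%). A member with 2 windows was counted once if either matched, whereas the percentages are over windows. The windows of Hoga1 and Slc26a6 and the matching window of Slc26a1 lie inside these genes as the GENCODE annotation places them. The Hao2 promoter had a GC content of 28.4%, against a median of 52.4% over all windows. These matches are letters in a window and were tied to no measurement of binding.

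As deposited, FPKM values in stone kidneys were higher for Prodh2 and Hao2 and lower for Agxt2, Grhpr, Hoga1 and Slc26a6. In whole tissue, fewer cells of a type and less RNA per cell cannot be told apart. By limma on log2(FPKM + 1) with Benjamini-Hochberg adjusted p below 0.05 over 12319 genes, 2 of the 9 tested members were higher and 4 lower. Over all tested genes 57.4% were called, 43.5% higher and 13.9% lower. The members' median log2 fold change was -0.14, beside 0.21 for all tested genes, so the typical gene stood above 0 as the values were deposited. Median-of-ratios scaling, which sets the typical gene near 0, left 1 member higher and 5 lower, with 22.5% of all tested genes higher and 26.2% lower. Hao2 lost its call under that scaling, and Hoga1 lost its call when samples were set to equal FPKM sums. Summed over the 10 members, the level was 1091, 998 and 935 FPKM in stone samples 1 to 3 and 997, 1087 and 957 FPKM in control samples 1 to 3, so the groups overlapped in their total.

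**Figure D1:**
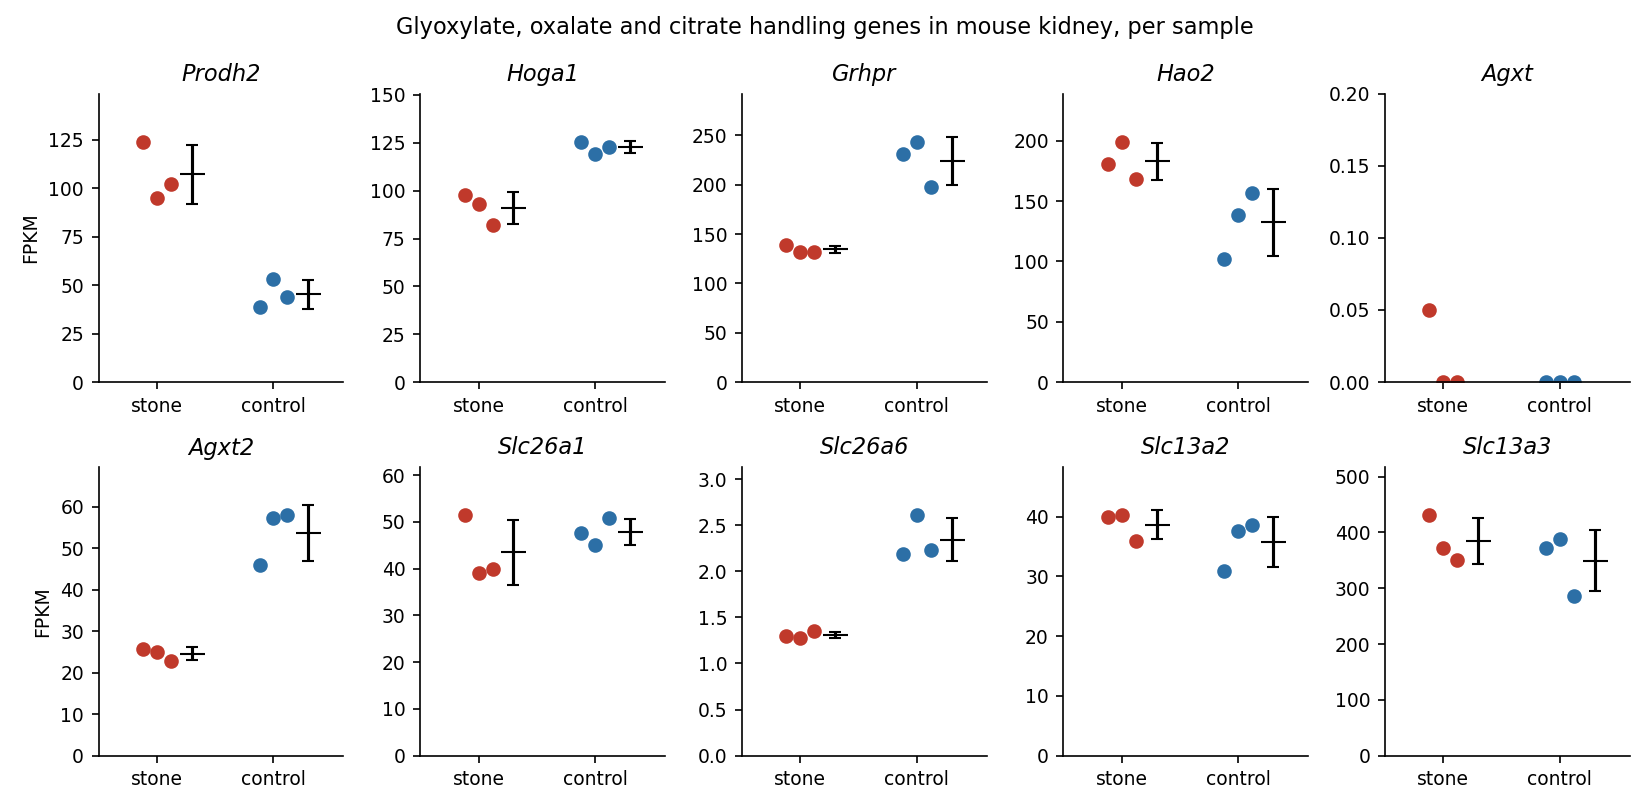
FPKM of each of the 10 genes (vertical axis, from 0, own scale per gene) in 3 stone and 3 control kidneys, one point per sample, with mean and SD as the bar beside the points except for Agxt. Prodh2 and Hao2 lie higher in every stone sample, Agxt2, Grhpr, Hoga1 and Slc26a6 lower, and Agxt is listed at 0 in all but 1 sample.

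Prodh2 encodes hydroxyproline dehydrogenase, which opens the mitochondrial breakdown of hydroxyproline. It lies on chromosome 7 from 30493622 to 30513402 (GRCm38.p6, GENCODE M21). Its level was 124, 95.3 and 102 FPKM in stone samples 1 to 3, against 38.8, 53.3 and 43.7 FPKM in control samples 1 to 3. The lowest stone value was well above the highest control value. Prodh2 averaged 107 ± 15.1 FPKM in stone kidneys and 45.3 ± 7.37 FPKM in controls (SD, n = 3 each), a 2.37-fold rise. Its log2 fold change stood at 1.23, its SE at 0.14 (adjusted p = 0.000425, limma), above those of 95.2% of tested genes, and 0.98 under median-of-ratios scaling (adjusted p = 0.00218, limma).

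Hoga1 encodes 4-hydroxy-2-oxoglutarate aldolase, which releases glyoxylate in the last step of the same route. The gene lies on chromosome 19 from 42045610 to 42070953. Hoga1 was at 97.9, 93.3 and 81.9 FPKM in stone samples 1 to 3, against 126, 119 and 123 FPKM in control samples 1 to 3. All stone values were lower than all control values. The means were 91.0 ± 8.20 FPKM in stone and 123 ± 3.13 FPKM in control kidneys (SD, n = 3 each), and the log2 fold change stood at -0.43, its SE at 0.077 (adjusted p = 0.00302, limma). With samples set to equal FPKM sums the call was lost, at -0.15 (adjusted p = 0.113, limma). The gene 4933411K16Rik, on the same strand inside Hoga1, was at 2.18 ± 0.413 FPKM in stone and 1.26 ± 0.269 FPKM in control kidneys.

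The opening and closing enzymes of hydroxyproline breakdown thus moved in opposite directions. Prodh2 over Hoga1, as a ratio of FPKM within a sample, was 1.18 ± 0.137 in stone kidneys and 0.37 ± 0.070 in controls (SD, n = 3 each). The log2 ratio differed by 1.68 between the groups, and all 3 stone samples were above all 3 controls (exact permutation test, two-sided, p = 0.1, the smallest that 3 against 3 samples allow, adjusted p = 0.125 over 5 ratios). This ratio was added after the data were seen, so its separation of the groups was known beforehand and adds no independent support. The steps between were also looked up after their values were seen. Aldh4a1, the dehydrogenase of the next step, fell to 91.6 ± 8.98 FPKM in stone kidneys, against 154 ± 9.84 FPKM in controls (SD, n = 3 each, log2 fold change -0.75, adjusted p = 0.000514, limma). Got2, the mitochondrial aspartate aminotransferase that acts next, was at 212 ± 13.3 FPKM in stone and 184 ± 2.77 FPKM in control kidneys. Its rise of 0.20 on the log2 scale (adjusted p = 0.0299, limma) was near the median of all tested genes, and under median-of-ratios scaling Got2 stood at -0.05 (adjusted p = 0.66, limma). Its call was also lost in 4 of the 6 fits that left out a sample, namely stone sample 1 or 2, or control sample 1 or 3 (adjusted p = 0.0813, 0.0665, 0.0898 and 0.059, limma).

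**Figure D2:**
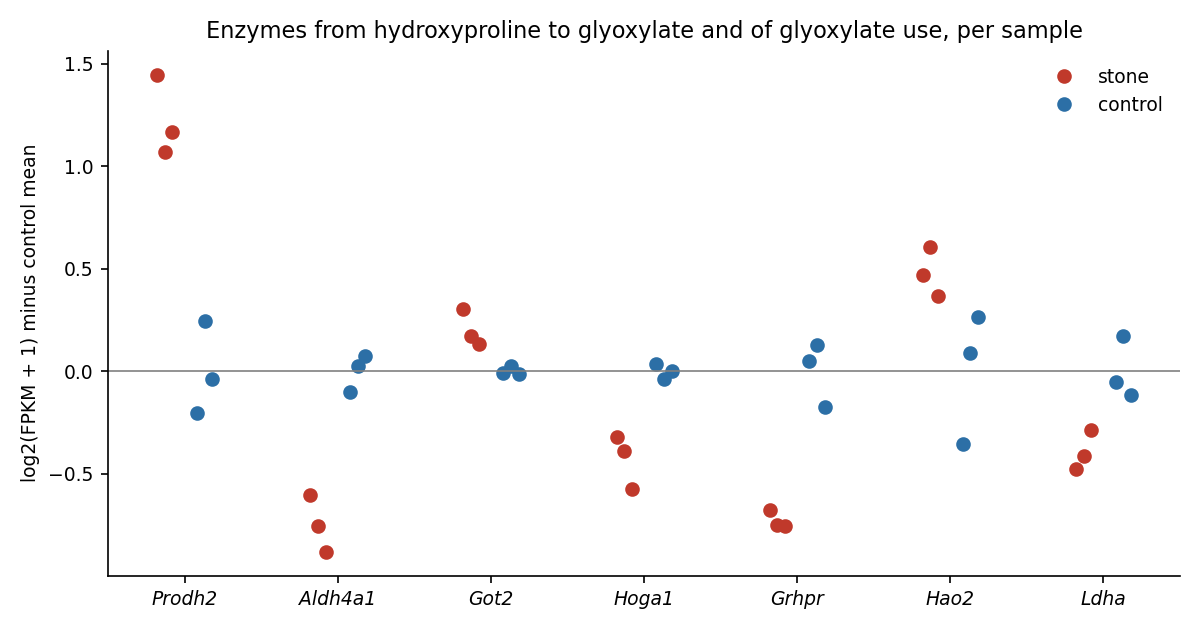
Level of enzymes of hydroxyproline breakdown in order of their steps (Prodh2, Aldh4a1, Got2, Hoga1), then of the glyoxylate reductase Grhpr, the hydroxy acid oxidase Hao2 and the lactate dehydrogenase Ldha, as log2(FPKM + 1) minus the control mean, one point per sample with stone left and control right. Prodh2 is highest, Aldh4a1, Hoga1, Grhpr and Ldha are lower in every stone sample, and Got2 differs least.

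Grhpr encodes glyoxylate and hydroxypyruvate reductase, the enzyme deficient in primary hyperoxaluria of the second type in humans. It lies on chromosome 4 from 44981395 to 44990734. Its values were 139, 132 and 132 FPKM in stone samples 1 to 3, against 231, 244 and 197 FPKM in control samples 1 to 3. The stone samples were close to each other and all below the controls. Grhpr averaged 134 ± 3.96 FPKM in stone kidneys and 224 ± 24.0 FPKM in controls (SD, n = 3 each), 1.67-fold lower. The log2 fold change stood at -0.73, its SE at 0.086 (adjusted p = 0.000547, limma), and -0.98 under median-of-ratios scaling (adjusted p = 0.000436, limma).

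Hao2 encodes a peroxisomal oxidase of longer 2-hydroxy acids and is the kidney relative of the liver glycolate oxidase gene Hao1. It lies on chromosome 3 from 98874521 to 98893239. Hao2 was at 181, 199 and 169 FPKM in stone samples 1 to 3, against 102, 139 and 157 FPKM in control samples 1 to 3. The groups did not overlap, but the control samples were spread widely, with control sample 1 the lowest. The means were 183 ± 15.5 FPKM in stone and 132 ± 27.9 FPKM in control kidneys (SD, n = 3 each). Hao2 rose by 0.48 on the log2 scale with SE 0.15 (adjusted p = 0.0311, limma). The call was lost under median-of-ratios scaling, at 0.23 (adjusted p = 0.274, limma), with no filter on low values, at 0.48 (adjusted p = 0.0526, limma), and without control sample 2, stone sample 1 or stone sample 2, at 0.53, 0.49 and 0.42 (adjusted p = 0.0577, 0.061 and 0.0951, limma). Hao1 itself was listed at 0 in 5 samples and at 0.04 FPKM in stone sample 2.

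Within a sample, Hao2 passed Grhpr in stone kidneys. Grhpr over Hao2 was 0.739 ± 0.065 in stone kidneys and 1.76 ± 0.504 in controls (SD, n = 3 each). The log2 ratio was lower by 1.22 on average, with no overlap between the groups (exact permutation test, two-sided, p = 0.1, adjusted p = 0.125 over 5 ratios).

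The aminotransferase genes differed in kind. Agxt encodes the peroxisomal alanine-glyoxylate aminotransferase that clears glyoxylate in liver and is deficient in primary hyperoxaluria of the first type. The gene lies on chromosome 1 from 93135240 to 93145421. Agxt was listed at 0 FPKM in stone samples 2 and 3 and in all 3 control samples, and at 0.05 FPKM in stone sample 1. No difference could be tested at this level.

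Agxt2, on chromosome 15 from 10358532 to 10410153, encodes a mitochondrial aminotransferase that also uses glyoxylate and, in kidney and liver, breaks down dimethylarginine. It was at 25.8, 25.0 and 22.7 FPKM in stone samples 1 to 3, against 45.9, 57.2 and 57.9 FPKM in control samples 1 to 3. The highest stone value was far below the lowest control value. Agxt2 averaged 24.5 ± 1.57 FPKM in stone kidneys and 53.7 ± 6.76 FPKM in controls (SD, n = 3 each), 2.19-fold lower. Its log2 fold change of -1.09 with SE 0.10 (adjusted p = 0.000207, limma) was at percentile 1.85 of all tested genes. Under median-of-ratios scaling it was -1.34 (adjusted p = 0.000142, limma). Of the summed FPKM of Grhpr, Hao2, Agxt and Agxt2, Agxt2 made up 7.17% ± 0.249 in stone and 13.1% ± 0.978 in control kidneys. Agxt2 over Grhpr was 0.182 ± 0.0088 in stone and 0.242 ± 0.048 in control kidneys, lower in all 3 stone samples (exact permutation test, two-sided, p = 0.1, adjusted p = 0.125 over 5 ratios). That ratio was likewise added after the data were seen, so its test adds no independent support. The annotation places the protein-coding gene Gm21973 over Agxt2 on the same strand. Gm21973 was not analysed here, and how reads of the overlap were assigned is not given, which makes the level of Agxt2 uncertain to that extent.

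The anion exchanger genes stood far apart in level. Slc26a1 encodes the basolateral sulfate and oxalate exchanger of the proximal tubule and lies on chromosome 5 from 108669878 to 108675569. Its level was 51.5, 39.2 and 39.9 FPKM in stone samples 1 to 3 and 47.6, 45.1 and 50.8 FPKM in control samples 1 to 3. Stone sample 1 was the highest of all 6, and the groups overlapped. Slc26a1 did not pass, with means of 43.5 ± 6.90 FPKM in stone and 47.8 ± 2.85 FPKM in control kidneys (SD, n = 3 each) and a log2 fold change of -0.14 (95% interval -0.40 to 0.12, adjusted p = 0.298, limma). It was called lower under median-of-ratios scaling, at -0.39 (adjusted p = 0.0357, limma), with array weights, at -0.22 (adjusted p = 0.0361, limma), and without stone sample 1, at -0.27 (adjusted p = 0.0227, limma). With equal FPKM sums the difference was 0.13 (adjusted p = 0.336, limma). Slc26a1 overlaps Idua on the opposite strand, and Idua was at 5.81 ± 0.924 FPKM in stone and 5.60 ± 0.922 FPKM in control kidneys, with no sign that was kept across scalings.

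Slc26a6 encodes the apical chloride and oxalate exchanger, whose loss raises urinary oxalate in mice. It lies on chromosome 9 from 108853283 to 108913049. Slc26a6 was low, at 1.30, 1.28 and 1.35 FPKM in stone samples 1 to 3, against 2.19, 2.61 and 2.23 FPKM in control samples 1 to 3. All stone values were below all controls, with little spread among them. The means of 1.31 ± 0.036 FPKM in stone and 2.34 ± 0.232 FPKM in control kidneys (SD, n = 3 each) were 1.79-fold apart. On the log2(FPKM + 1) scale, which understates changes at such levels, the fold change was -0.53 with SE 0.10 (adjusted p = 0.00424, limma). It was -0.79 with a pseudocount of 0.1. Slc26a6 made up 2.97% ± 0.440 of the FPKM of the 2 exchanger genes in stone kidneys and 4.69% ± 0.680 in controls. The log2 ratio of Slc26a6 to Slc26a1 differed by -0.69 with no overlap (exact permutation test, two-sided, p = 0.1, adjusted p = 0.125 over 5 ratios).

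The citrate carriers did not pass the test. Slc13a2 encodes the apical carrier that recovers citrate from the tubule fluid and lies on chromosome 11 from 78397087 to 78422217. It was at 39.9, 40.3 and 35.9 FPKM in stone samples 1 to 3 and at 30.9, 37.6 and 38.7 FPKM in control samples 1 to 3. The groups overlapped, and control sample 1 was the lowest. The log2 fold change of Slc13a2 was 0.12 (95% interval -0.11 to 0.34, adjusted p = 0.329, limma). It was called higher with equal FPKM sums, at 0.39, and with array weights, at 0.28 (adjusted p = 0.0129 and 0.0147, limma), and stood at -0.13 under median-of-ratios scaling.

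Slc13a3 encodes the basolateral carrier of dicarboxylates and citrate, on chromosome 2 from 165405028 to 165473230, and was the most abundant member. Its values were 431, 372 and 351 FPKM in stone samples 1 to 3 and 373, 389 and 287 FPKM in control samples 1 to 3, again overlapping. The means were 385 ± 41.7 FPKM in stone and 350 ± 55.0 FPKM in control kidneys (SD, n = 3 each). On the log2 scale they differed by 0.15 (95% interval -0.17 to 0.46, adjusted p = 0.376, limma), and only equal FPKM sums, of the 14 alternatives run, called Slc13a3 higher, at 0.42 (adjusted p = 0.0103, limma). Slc13a3 over Slc13a2 was 9.94 ± 0.798 in stone and 9.95 ± 2.35 in control kidneys (exact permutation test, two-sided, p = 0.9). Both carriers overlap antisense genes that were not analysed here, so reads from these cannot be told apart from theirs if strand was not used in counting.

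**Figure D3:**
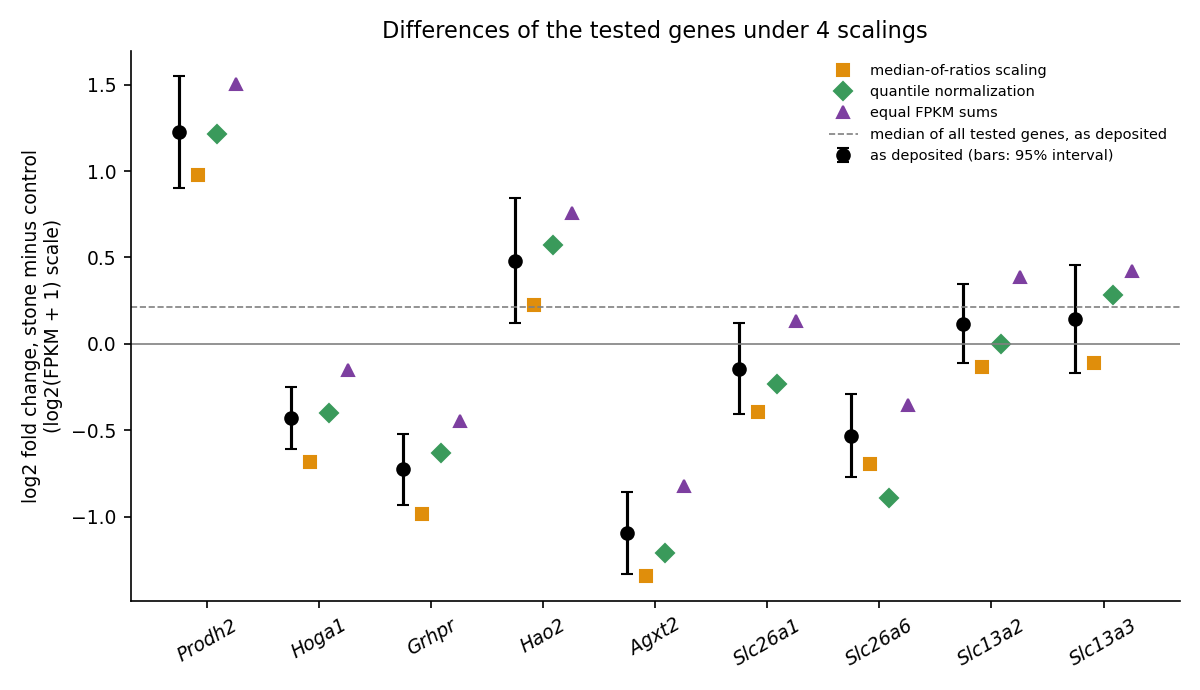
Log2 fold change (stone minus control) of the 9 tested genes as deposited, with 95% intervals from limma, and under 3 other scalings of the samples. Prodh2 is above 0, and Agxt2, Grhpr, Hoga1 and Slc26a6 below 0, under all 4, while the sign of Slc26a1, Slc13a2 and Slc13a3 depends on the scaling.

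The order of levels also differed between the groups. In stone kidneys the means ran from Slc13a3 through Hao2, Grhpr, Prodh2, Hoga1, Slc26a1, Slc13a2 and Agxt2 to Slc26a6. In control kidneys they ran from Slc13a3 through Grhpr, Hao2, Hoga1, Agxt2, Slc26a1, Prodh2 and Slc13a2 to Slc26a6. The samples of Prodh2 and Hoga1 overlapped in stone kidneys, as did those of Slc26a1 and Slc13a2. In control kidneys Hao2 overlapped Hoga1, and Agxt2, Slc26a1 and Prodh2 overlapped each other, so their order there is not set.

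Most of these genes are known from the proximal tubule, and the summed level of markers of that segment was lower in stone kidneys. All 20 proximal tubule markers were tested, 3 were higher and 10 lower, and their summed level was 7176 to 8767 FPKM in stone and 11727 to 13328 FPKM in control kidneys. Under median-of-ratios scaling 1 marker was higher and 13 lower, and with equal FPKM sums 6 were higher and 8 lower. Slc17a3, a phosphate and urate transporter gene, and Ggt1, a brush border peptidase gene, fell by 2.32 and 1.32 on the log2 scale, and Slc34a1, the phosphate carrier gene, by 0.66 (adjusted p = 1.37e-05, 2.19e-05 and 0.00399, limma). The 3 markers that rose, named after their values were seen, were Slc5a12, a lactate carrier gene, by 0.96, Slc2a2, a glucose carrier gene, by 0.45, and Slc7a9, a cystine carrier gene, by 0.36 (adjusted p = 0.00594, 0.012 and 0.0176, limma). Of these only Slc5a12 was called under median-of-ratios scaling, at 0.71 (adjusted p = 0.0284, limma), and the call of Slc7a9 was also lost without control sample 1, at 0.27 (adjusted p = 0.0532, limma). The mean log2(FPKM + 1) of the 20 markers was 7.76 ± 0.175 in stone and 8.15 ± 0.0667 in control kidneys (SD, n = 3 each), a difference of -0.39.

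Set against that mean in each sample, Prodh2 and Hao2 stood above it and Agxt2 below it. Single markers spread widely on the same scale, from -1.93 for Slc17a3 to 1.36 for Slc5a12. Of the tested members only Prodh2 lay outside the range of the markers. The relative log2 difference was 1.62 with SE 0.14 for Prodh2, 0.87 with SE 0.15 for Hao2 and -0.70 with SE 0.14 for Agxt2 (adjusted p = 9.65e-08, 0.000149 and 0.00046, limma). Hao2 was at percentile 75.2 of all tested genes in log2 fold change, a rank that this subtraction leaves unchanged. Slc13a3 and Slc13a2 were higher than the mean of the markers by 0.54 and 0.51 (adjusted p = 0.00251 and 0.00451, limma), near the median of 0.60 that all tested genes showed on this scale. Hoga1, Slc26a6 and Slc26a1 did not pass, at -0.04, -0.14 and 0.25 (95% intervals -0.31 to 0.23, -0.58 to 0.30 and -0.03 to 0.53). Grhpr was below the mean of the markers by 0.33 (adjusted p = 0.0327, limma), a call lost with the median of the markers (adjusted p = 0.113, limma) and without stone sample 1 or 2 or control sample 1 or 2 (adjusted p = 0.0549, 0.0555, 0.146 and 0.121, limma). On this scale 4 of 9 tested members were called higher and 2 lower, with 70.7% of all tested genes called higher and 3.36% lower.

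**Figure D4:**
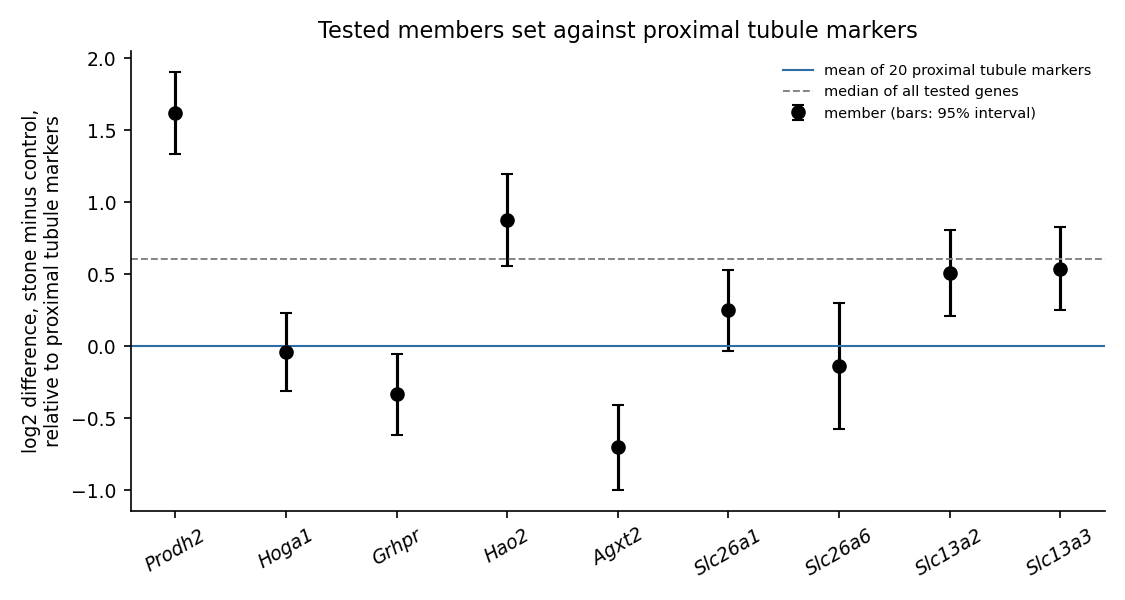
Log2 difference (stone minus control) of the 9 tested genes after subtraction of the mean of 20 proximal tubule markers in each sample, with 95% intervals from limma. Prodh2 and Hao2 lie above the line of the markers and Agxt2 and Grhpr below it, while Slc13a2 and Slc13a3 lie near the dashed median of all tested genes.

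Other marker lists moved beside these genes, and their part in the results was not tested. All 5 markers of injured tubule rose, with a summed level of 566 to 1280 FPKM in stone and 8.12 to 13.5 FPKM in control kidneys. Among them Sox9, Krt20 and Lcn2 rose by 2.91, 3.62 and 6.43 on the log2 scale (adjusted p = 9.42e-06, 1.42e-05 and 3.36e-05, limma). The added 1 FPKM understates the rise of Sox9 and Krt20, whose control means were 0.123 and 0.217 FPKM. With a pseudocount of 0.1, Sox9, Krt20 and Lcn2 rose by 5.09, 5.63 and 6.64. Of 7 macrophage markers 6 rose and 0 fell, with sums of 199 to 508 FPKM in stone and 67.9 to 74.1 FPKM in control kidneys, and all 5 of fibroblasts rose, with sums of 95.7 to 169.5 FPKM in stone and 26.1 to 36.2 FPKM in control kidneys. Endothelial markers rose in 4 of 6 and podocyte markers in 4 of 5, with 0 lower in either. Thick limb markers fell in 3 of 5 and distal convoluted tubule markers in 2 of 4, with 0 higher, while principal cell markers rose in 3 and fell in 1 of 5 and intercalated cell markers rose in 1 and fell in 1 of 5. These small counts stand beside the 43.5% of all tested genes called higher and moved with the scaling. Under median-of-ratios scaling thick limb markers had 0 higher and 4 lower, distal convoluted tubule 0 and 2, principal cell 1 and 1, and intercalated cell 0 and 2. With equal FPKM sums thick limb markers had 0 higher and 1 lower, distal convoluted tubule 1 and 1, principal cell 3 and 0, and intercalated cell 3 and 1. Hepatocyte markers, of which 6 of 7 are in the table, summed to 7.08 to 8.26 FPKM in stone and 15.6 to 18.6 FPKM in control kidneys. Cps1 was at 0 in every sample, and the 2 tested, Apoa2 and Alb, fell by 0.90 and 1.12 on the log2 scale (adjusted p = 0.00124 and 0.00173, limma). With a pseudocount of 0.1 Apoa2 and Alb stood at -0.99 and -1.56.

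Among the other enzymes of glyoxylate, hydroxyproline and glycine metabolism, more were lower than higher in stone kidneys. Of 23 listed genes 22 are in the table and 21 were tested, with 4 higher and 13 lower and a median log2 fold change of -0.45. Over all tested genes 43.5% were higher and 13.9% lower. Set against the mean of the proximal tubule markers, most of the 13 were no longer called. On that scale more genes of the list were called higher than lower, beside 70.7% higher and 3.36% lower of all tested genes. Under median-of-ratios scaling 2 were higher and 14 lower, and with equal FPKM sums 7 were higher and 10 lower. Shmt2, the mitochondrial serine hydroxymethyltransferase, was at 62.1 ± 2.16 FPKM in stone and 139 ± 12.0 FPKM in control kidneys, and Ldhd, the D-lactate dehydrogenase, at 221 ± 3.04 FPKM in stone and 485 ± 49.6 FPKM in control kidneys (SD, n = 3 each). They fell by 1.15 and 1.13 on the log2 scale, and Dmgdh, a mitochondrial dehydrogenase of dimethylglycine, by 1.02 (adjusted p = 5.42e-05, 8.28e-05 and 0.000199, limma). Shmt2, Ldhd and Dmgdh stayed lower relative to the mean of the proximal tubule markers, at -0.76, -0.73 and -0.63 (adjusted p = 0.000218, 0.000292 and 0.00244, limma).

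The 4 genes of that list that rose were Gldc, Prodh, Shmt1 and Got2, of which all but Gldc were picked after their values were seen. Gldc, the glycine decarboxylase gene, was at 105 ± 22.1 FPKM in stone and 25.6 ± 7.91 FPKM in control kidneys (SD, n = 3 each), with a log2 fold change of 2.02 (adjusted p = 0.000373, limma). Prodh, the proline dehydrogenase gene related to Prodh2, rose by 0.66 (adjusted p = 0.00431, limma), a call lost under median-of-ratios scaling at 0.41 (adjusted p = 0.0603, limma). Shmt1, the cytosolic form of the hydroxymethyltransferase, rose by 0.62 (adjusted p = 0.000676, limma). Among the lactate dehydrogenase genes, whose enzymes oxidise glyoxylate to oxalate and which were also picked afterwards, Ldha was at 413 ± 27.8 FPKM in stone and 544 ± 58.6 FPKM in control kidneys. It fell by 0.39 on the log2 scale (adjusted p = 0.0107, limma), a call lost with equal FPKM sums at -0.11 (adjusted p = 0.255, limma). Ldhb was at 1326 ± 88.2 FPKM in stone and 1337 ± 118 FPKM in control kidneys (adjusted p = 0.931, limma).

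Sulfate carriers and scaffolds that accompany the exchangers were mixed. Of 13 listed genes 8 were tested, with 1 higher and 2 lower and a median log2 fold change of -0.11, beside 43.5% higher and 13.9% lower of all tested genes. Under median-of-ratios scaling 1 was higher and 4 lower. Slc13a1, the apical sodium and sulfate carrier gene, was at 441, 344 and 335 FPKM in stone samples 1 to 3, against 166, 178 and 166 FPKM in control samples 1 to 3. It rose by 1.12 on the log2 scale with SE 0.11 (adjusted p = 0.000259, limma), and all stone values were above all controls. Slc13a4, another sulfate carrier gene, fell by 0.97, and Pdzk1, a scaffold gene of brush border transporters, by 0.66 (adjusted p = 0.000722 and 0.000999, limma). Slc13a4 was a low gene, and with a pseudocount of 0.1 it stood at -1.40. Slc26a3, Slc26a5, Slc26a7, Slc26a8 and Slc26a9 were below the level for testing, Slc26a5 at 0 in every sample.

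In citrate transport and metabolism 12 of 13 listed genes were tested, 1 was higher and 6 lower, and the median log2 fold change was -0.20. Among all tested genes 43.5% were higher and 13.9% lower. Under median-of-ratios scaling 0 were higher and 10 lower, and with equal FPKM sums 3 were higher and 3 lower. Idh3b and Idh3g, subunits of the mitochondrial isocitrate dehydrogenase, fell by 0.62 and 0.55 on the log2 scale, and Slc25a10, the mitochondrial dicarboxylate carrier gene, by 0.58 (adjusted p = 0.000878, 0.00102 and 0.00149, limma). Relative to the mean of the proximal tubule markers they stood at -0.22, -0.16 and -0.19 and were not called (adjusted p = 0.128, 0.241 and 0.195, limma). On that scale no gene of the list was called lower and several were called higher. Idh1, the cytosolic isocitrate dehydrogenase gene, rose by 0.46 (adjusted p = 0.0212, limma), a call lost under median-of-ratios scaling at 0.21 (adjusted p = 0.32, limma) and without control sample 1 or 3 (adjusted p = 0.0724 and 0.0653, limma). The citrate carrier gene Slc13a5 was too low to be tested, at 0.09 ± 0.040 FPKM in stone and 0.477 ± 0.0709 FPKM in control kidneys.

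**Figure D5:**
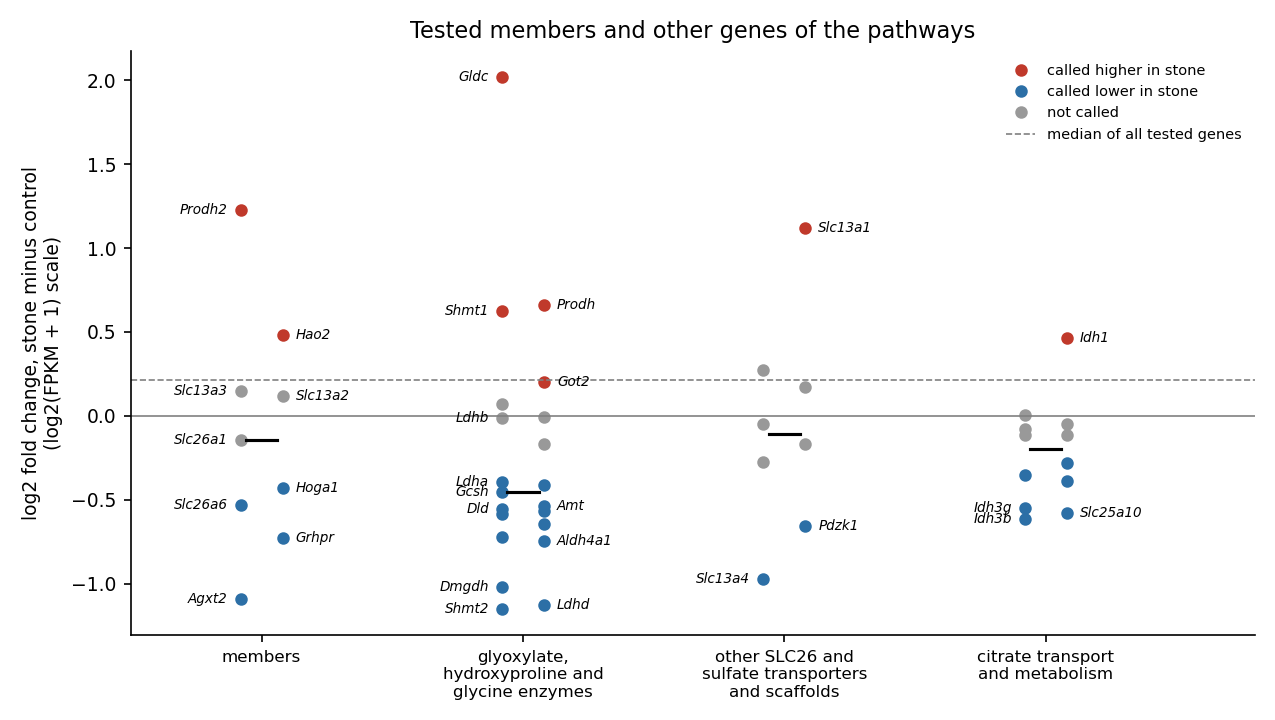
Log2 fold change (stone minus control, log2(FPKM + 1) scale) of every tested gene among the members and in 3 lists of pathway genes, coloured by the limma call, with a short black line at each list's median. The medians of -0.14, -0.45, -0.11 and -0.20 all lie below the dashed median of all tested genes at 0.21, and Gldc, Prodh2 and Slc13a1 lie highest.

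For each called member, the gene closest in its 6 values of log2(FPKM + 1) minus the control mean was looked up among all tested genes other than the members. The closest gene was Hacl1, a peroxisomal 2-hydroxyacyl-CoA lyase gene, for Prodh2 (Euclidean distance 0.21), Slc20a1 for Hao2 (0.19), Tm4sf4 for Agxt2 (0.16), Pcbd1 for Grhpr (0.064), the vitamin D receptor gene Vdr for Hoga1 (0.054) and Ndufa4 for Slc26a6 (0.072). The added 1 FPKM shrinks changes of low genes, so 2 of these matches are not matches in fold change. Tm4sf4, at 0.257 FPKM in stone and 1.76 FPKM in control kidneys on average, was 6.87-fold lower, and Agxt2 2.19-fold. Ndufa4, an abundant gene, was 1.43-fold lower, and the low gene Slc26a6 1.79-fold. Hacl1 was at 45.5, 37.5 and 34.7 FPKM in stone samples 1 to 3, against 13.4, 17.6 and 14.8 FPKM in control samples 1 to 3. Within a distance of 0.5, Prodh2 had 67 genes, Agxt2 88, Grhpr 477, Hao2 907, Slc26a6 1000 and Hoga1 1361. These counts depend on the size of the fold change, because the distance includes it. Prodh2 and Agxt2, with the lowest counts, stood at percentiles 95.2 and 1.85 of log2 fold change among all tested genes. How far the counts restate the fold changes was not tested.

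As for the series as a whole, FPKM sums were 609705 to 613885 in stone and 711768 to 758514 in control samples. Kap, a proximal tubule transcript, took 1.18% to 2.26% of the sum in stone and 19.3% to 23.2% in control samples. Pearson's r across tested genes was 0.979 to 0.991 within groups and 0.931 to 0.950 between them. Absolute sequencing depth is unknown, so no counting interval is given. The groups did not overlap for 2 members that were higher and 4 that were lower, where 66.3% of all tested genes had groups that did not overlap, 49.8% higher and 16.5% lower.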

How the data were processed

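RNA was measured in whole kidney tissue, 3 stone and 3 control samples. Total RNA was taken with TRIzol and the libraries keep strand by dUTP, per the labels' protocols. The submitters' processing notes name HISAT2 2.0.4, an aligner, and the build GRCm38.p6. Which quantifier, annotation and strand setting made the values is not given in the sources at hand. The table holds FPKM made by the authors, 1 column per sample, and the total they divided by is not given either. Over 53 genes at the lowest values, the value that may stand for 1 fragment lay within -0.04 and 0.06 of its mean over samples on the log2 scale, which gives no absolute depth.

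The test took the 12319 genes whose mean reached 1 FPKM and left out 5614, on log2(FPKM + 1), a scale where a fold change understates the change of low genes, with limma 3.58.1 in R 4.3.3 (eBayes with trend), two-sided, with Benjamini-Hochberg adjustment across these genes and calls below 0.05. The same fit was run after subtracting the mean of the proximal tubule markers. Ratios between members were compared by exact permutation over samples. The planned ratios with Agxt were undefined, and Prodh2 over Hoga1 and Agxt2 over Grhpr were added after the data were seen. The labels do not say that each sample came from its own mouse, so p-values reflect the spread between the samples alone, possibly a technical one. Coordinates and neighbours came from GENCODE M21 and promoters from RefSeq, both on GRCm38.p6. All 10 members matched. The fit was run on simulated data with independent noise and changes planted in a small share of genes. That setting cannot show how the fit behaves when most genes differ or when the scaling shifts.

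The members, lists and motifs were chosen with earlier results of these data known. The genes open to naming were the members, in each pathway list the 3 called genes with the smallest p, the leading call against the majority and the genes too low to test, in each marker list the most abundant gene and the 2 with the smallest p, genes overlapping or nearest to a member, and the closest gene in pattern. Not all of these are named. Alternatives were another pseudocount, no filter, 4 scalings, array weights, the replicate number as a block, the median of the proximal tubule markers, and each sample left out.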

Additional observations from a re-analysis of the deposited data

How the results depend on the processing

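The typical gene moved with the scaling. Over all tested genes the median difference was 0.21 on the log2 scale as deposited, -0.01 under median-of-ratios scaling, -0.03 after quantile normalization and 0.45 with equal FPKM sums. Genes called higher numbered 5356 as deposited, 2776, 2762 and 8440 in that order, and genes called lower 1711, 3222, 3108 and 797. Members called higher were 2 as deposited, 1 with no filter, 1 under median-of-ratios scaling, 4 with equal FPKM sums and 1 to 2 with a sample left out. Members called lower were 4 as deposited and 3 to 5 under the 14 alternatives. Prodh2, Agxt2, Grhpr and Slc26a6 kept direction and call under all 14, with ranges over left-out samples of 1.12 to 1.35, -1.20 to -1.04, -0.82 to -0.66 and -0.56 to -0.47. Slc26a1 stood at 0.13 with equal FPKM sums, Slc13a2 at -0.13 under median-of-ratios scaling and at -0.00039 after quantile normalization, and Slc13a3 at -0.11 under median-of-ratios scaling, none of them called. Got2 stood at -0.052 under median-of-ratios scaling. Ldhb stood at 0.10 after quantile normalization, 0.27 with equal FPKM sums (adjusted p = 0.0175, limma) and 0.017 with array weights, and between -0.059 and 0.060 with a sample left out. Idua stood at -0.17 under median-of-ratios scaling, -0.28 after quantile normalization and -0.12 with array weights. Relative to the proximal tubule markers, Hoga1 lay between -0.094 and 0.018 with a sample left out. The log2 ratio of Slc13a3 to Slc13a2 lay between -0.17 and 0.18, and Idua between -0.058 and 0.16, in the same runs. For the glyoxylate, hydroxyproline and glycine list, 4 were higher as deposited, 2 under median-of-ratios scaling, and 7 when FPKM sums were made equal, and 13 were lower as deposited, 14 under median-of-ratios scaling, and 10 of 21 when FPKM sums were made equal. For the sulfate carriers and scaffolds, 1 was higher as deposited, 4 with equal FPKM sums and 2 with array weights, and 2 were lower as deposited, 4 under median-of-ratios scaling and 5 with array weights. For the citrate list, 1 was higher as deposited, 0 under median-of-ratios scaling, 3 with equal FPKM sums and 0 to 1 with a sample left out, and 6 were lower as deposited, 10 under median-of-ratios scaling, and 3 when FPKM sums were made equal. With Kap left out of the sums that were made equal, 4528 genes were called higher and 1831 lower, and 2 members higher and 4 lower. Hoga1 then kept its call, at -0.465 (adjusted p = 0.0028, limma). Slc26a1, Slc13a2 and Slc13a3 stood at -0.18, 0.08 and 0.11 in that run and were not called (adjusted p = 0.23, 0.51 and 0.44, limma). Beyond these scalings the cause of the shifts in calls was not tested. In their deviations from the group means, samples with the same replicate number had r across genes of 0.0075, -0.22 and -0.04 for numbers 1 to 3. Pairs with different numbers had r of -0.07 to 0.16. Deviations within a group of 3 sum to 0, which ties these values to each other, so they cannot decide whether samples were paired. With the replicate block, 2 members were higher and 4 lower, Got2 was no longer called (adjusted p = 0.0655, limma), and Grhpr was no longer called below the proximal tubule markers (adjusted p = 0.107, limma). Depth is unknown, so for Agxt, Hao1 and Slc26a5, listed at or near 0, no limit on the level can be given.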

Other observations

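The glycine cleavage system, a mitochondrial complex of 4 proteins that breaks down the glycine made from glyoxylate, showed opposite directions among its genes, which were looked at together after their values were seen. Gldc, the decarboxylase gene, was at 131, 90.9 and 94.4 FPKM in stone samples 1 to 3, against 21.9, 34.7 and 20.3 FPKM in control samples 1 to 3. Amt, the aminomethyltransferase gene, was at 27.2 ± 0.762 FPKM in stone and 40.0 ± 0.541 FPKM in control kidneys (SD, n = 3 each), and fell by 0.54 on the log2 scale (adjusted p = 0.000276, limma). Dld, the dihydrolipoamide dehydrogenase gene, was at 114 ± 7.71 FPKM in stone and 168 ± 5.43 FPKM in control kidneys and fell by 0.56 (adjusted p = 0.000605, limma). Gcsh, the lipoyl carrier gene, was at 70.2 ± 3.73 FPKM in stone and 96.6 ± 9.06 FPKM in control kidneys and fell by 0.45 (adjusted p = 0.00321, limma), a call lost with equal FPKM sums at -0.18 (adjusted p = 0.0594, limma). Relative to the mean of the proximal tubule markers, Amt, Dld and Gcsh stood at -0.14, -0.16 and -0.06 and were not called (adjusted p = 0.348, 0.23 and 0.688, limma). Gldc stood at 2.41 on that scale (adjusted p = 1.31e-08, limma). Gldc kept its call under all 14 alternatives run, and its level passed those of Amt and Gcsh in all 3 stone samples and of neither in any control sample. The serine hydroxymethyltransferase genes also split, with cytosolic Shmt1 higher and mitochondrial Shmt2 lower in stone kidneys. They did so relative to the mean of the markers too, at 1.02 and -0.76 (adjusted p = 2.0e-05 and 0.000218, limma).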
